A study of Mus musculus with 3 samples.

Results

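Skeletal muscle of mice fed a high-fat diet with added iron was set against muscle of mice on the control diet, over 6920 of 18193 genes measured (38.0%). For each gene the probe set brightest on average (mean log2 signal of the 3 arrays) was taken, among probe sets that the array annotation ties to a single gene symbol. A gene was kept where this probe set lay above the 75th percentile of its array on the Control or on the HF+SFC array, a signal of about 389.1 and 388.4. Of the 6920 genes, 6504 passed on both arrays, 216 on the Control array only and 200 on the HF+SFC array only, and 11273 genes passed on neither.

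The tissue was gastrocnemius, the main calf muscle, of male C57BL/6J mice. Control mice ate D12450B, with 10% of its energy from fat, 70% from carbohydrate and 20% from protein. HF mice ate D12492, with 60% from fat, 20% from carbohydrate and 20% from protein. HF+SFC mice ate D12492 to which an iron salt, sodium ferrous citrate (SFC), was added at 0.023% by weight. The study's methods put the start of the diets at 6 weeks of age and tissue collection 15 weeks later after a short fast, which gives 21 weeks, whereas the labels give an age of 21 months. Each group was hybridised to 1 Affymetrix Mouse Genome 430 2.0 array, with material of all its mice mixed. A single array of a mixture holds no measure of the spread between animals, so no difference below has a replicate check, a standard error or a p-value. The HF+SFC and Control diets differed in fat, carbohydrate and iron together, and no group had the control diet with added iron, so the parts of fat, carbohydrate and iron in any difference cannot be told apart. The HF array was no part of the comparison, and its value stands beside the other 2 for orientation only.

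Gastrocnemius is built mostly of fast, glycolytic fibres with some slow, oxidative ones. Fat from the diet reaches it as fatty acids, which are burned by beta-oxidation in mitochondria or stored as lipid droplets, and the nuclear receptors of the PPAR family sense these fatty acids and switch on many of the genes involved. Iron serves the same mitochondria, as heme and as iron–sulfur clusters in the respiratory chain. Between the fibres lie connective tissue, tendon ends, vessels, nerve and fat cells, whose RNA is read along with that of the fibres.

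Most genes differed little between the 2 arrays. The median log2 ratio of HF+SFC to Control was -0.01 with an SD of 0.23 across genes. Of all 6920 genes kept, 3371 had a ratio above 1 and 3549 a ratio below 1. The middle 50% of genes lay between -0.13 and 0.11, and 95% lay between -0.46 and 0.44. At a threshold of 1.5-fold, 79 genes were higher in HF+SFC (1.14% of the genes kept) and 92 were lower (1.33%), while 6749 were neither. At 2-fold, 17 were higher and 11 were lower. Genes that passed on 1 array only had to differ in that direction, and they made up 34 of the 79 higher and 37 of the 92 lower genes. Among the 6504 genes above the filter on both arrays, 45 were higher (0.692%) and 55 lower (0.846%).

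The spread of ratios shrank as signals grew, which the plot of ratio against signal shows. Among the 1730 dimmest genes (mean signal 262 to 659) the SD was 0.30, and 48 genes were higher and 52 lower. Among the 1730 brightest genes (2947 to 64080) the SD was 0.17, and 6 genes were higher and 7 lower. The 187 genes with a mean signal above 20000 had a median log2 ratio of 0.07 and an SD of 0.10, and none reached 1.5-fold. Just inside the filter lay Urm1 (Control 345, HF+SFC 389) and Supt20 (Control 389, HF+SFC 315), and just outside it Lipt1 (Control 389, HF+SFC 382) and Ganc (Control 342, HF+SFC 388). Just past the 1.5-fold threshold lay Cnot3 and Fbxl16, each 1.502-fold lower, and just short of it Plin5, at 1.495-fold higher, and Smtnl1, at 1.495-fold lower.

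**Figure D1:**
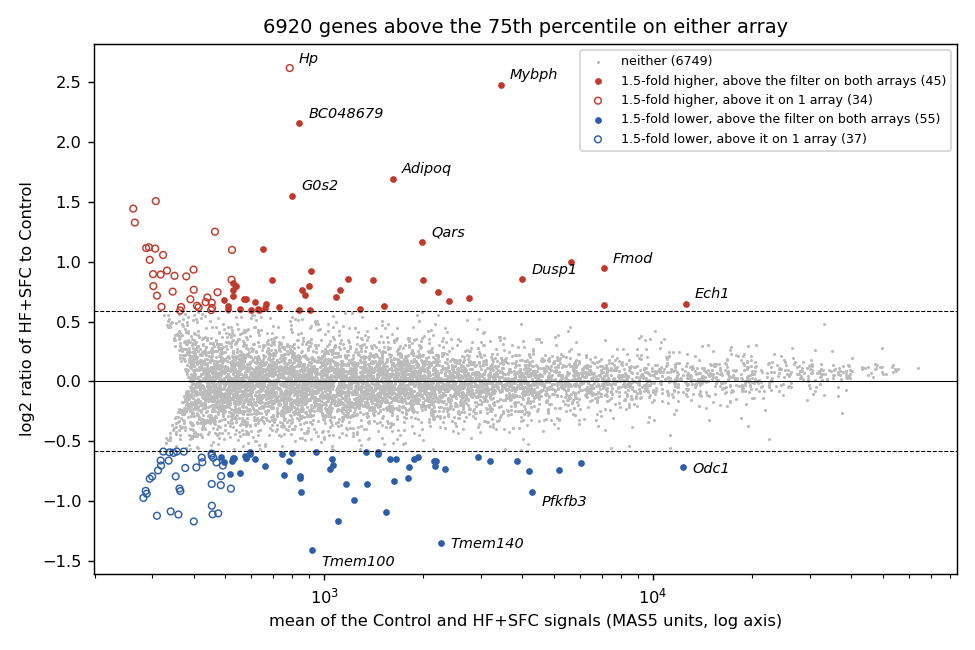
Log2 ratio of HF+SFC to Control (vertical axis) against the mean signal of the 2 arrays (horizontal axis, MAS5 units, log scale) for 6920 genes, 1 point each. Filled coloured points are genes at 1.5-fold or more that passed the filter on both arrays (45 higher, 55 lower), open points those that passed on 1 array (34 higher, 37 lower), grey points the other 6749, and the dashed lines mark 1.5-fold.

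The 3 arrays were scaled alike, with a trimmed mean of 500.0 each and medians between 63.6 and 68.0. The 3'/5' signal ratio of the Gapdh control probe sets lay between 0.820 and 0.842, and that of beta-actin was 1.09 on Control, 1.52 on HF and 1.15 on HF+SFC. The tissue label was checked by skeletal muscle markers, of which 11 of 11 lay far above the filter, from Myh2 at 35478 to Tnnt3 at 61584 on the Control array. No erythroid marker (0 of 3 measured) and no hepatocyte marker (0 of 3 measured) passed the filter. Their summed signals on Control, HF and HF+SFC were 188, 195 and 186 for the erythroid list, and 75.5, 122 and 87.8 for the hepatocyte list. Of 5 erythroid markers listed 3 were measured, and the globin among them, Hba-a1, read only 1.47, 4.58 and 49.7. The erythroid list therefore says little about blood RNA.

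Genes of fat cells and lipid droplets and a thick-filament gene of the muscle fibre were among the highest ratios. In what follows, a gene's 3 signals are given in the order Control, HF and HF+SFC. Hp encodes haptoglobin, the plasma protein that binds free hemoglobin, made by liver and fat. It had signals of 317, 2940.3 and 1945, and was 6.14-fold higher in HF+SFC than in Control. Its Control value lay below the filter, while both high-fat arrays were far above it. Mybph, a myosin-binding protein of the thick filament, had signals of 1459.8, 5407 and 8145 (5.58-fold higher). It was the brightest of the 15 highest genes and had its lowest signal on Control and its highest on HF+SFC. The transcript BC048679, whose function is not described here, had signals of 398, 2086 and 1775 (4.46-fold higher). Adipoq encodes adiponectin, a hormone made by fat cells, and had signals of 901, 4637 and 2915 (3.24-fold higher). G0s2, an inhibitor of the triglyceride lipase ATGL, had signals of 466, 1276 and 1368 (2.94-fold higher). For Hp, BC048679 and Adipoq the HF array read above the HF+SFC array, and for G0s2 and Mybph below it.

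Of the other 10 in the group of 15, 2 more are fat cell genes. Cidec, which fuses lipid droplets in fat cells, had signals of 159, 689 and 432 (2.72-fold higher). Sncg, a synuclein of neurons and fat cells, had signals of 195, 601 and 422 (2.16-fold higher). Both lay below the filter on the Control array and highest on the HF array. The same order held for Tmem45b, a transmembrane protein, with signals of 182, 871 and 517 (2.84-fold higher), and for Cox8c, an isoform of a small subunit of respiratory complex IV best known from testis, with 198, 505 and 432 (2.18-fold higher). Rab15, a small GTPase of endosomes, had 167, 459 and 420.0 (2.51-fold higher), and Cdh4, the cell adhesion protein R-cadherin, had 301, 762 and 717 (2.38-fold higher). In these genes the HF value was close to or above the HF+SFC value. In a further group HF+SFC was the highest of the 3 arrays. Basp1, a membrane protein of growing nerve endings, had 208, 246 and 449 (2.16-fold higher). Angptl7, a secreted angiopoietin-like protein, had 442, 802 and 955 (2.16-fold higher). Ip6k3, an inositol hexakisphosphate kinase abundant in muscle, had 358, 589.9 and 767 (2.14-fold higher). Qars, the glutaminyl-tRNA synthetase, was highest on the HF array, with 1323, 3794 and 2975 (2.25-fold higher), but its 2 other bright probe sets both gave -0.07 on the log2 scale, so the gene's value depended on the probe set. Of the 15 highest genes, 9 passed the filter on the HF+SFC array only.

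**Figure D2:**
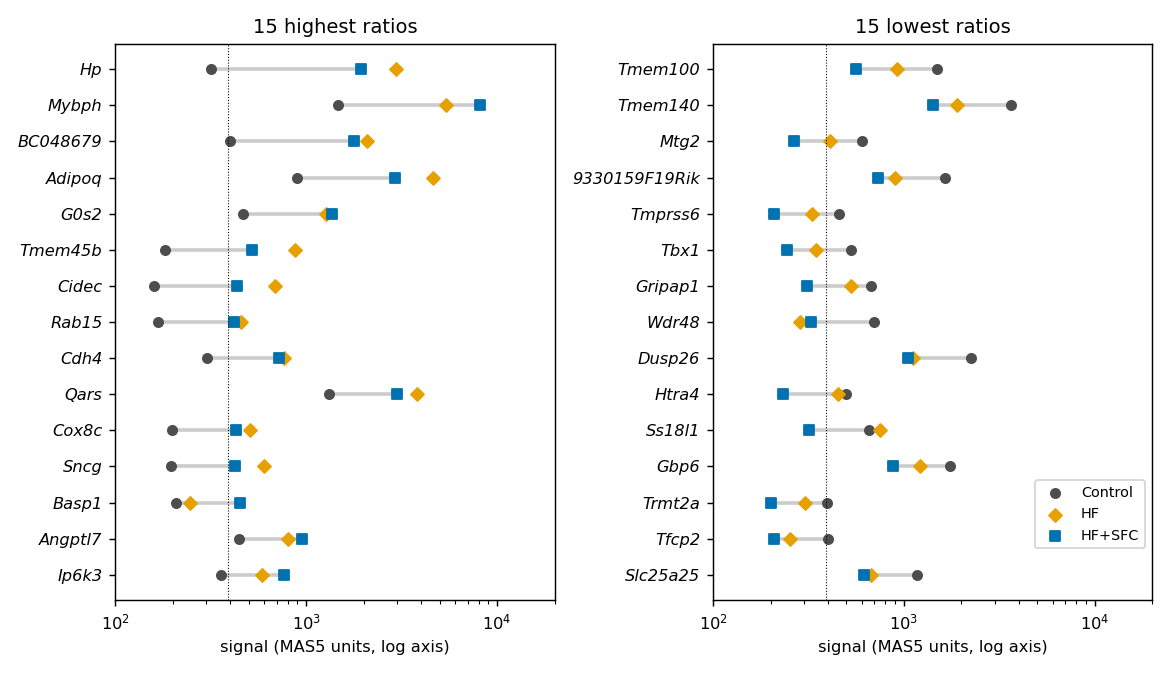
Signals (horizontal axis, MAS5 units, log scale) of the 15 genes with the highest and the 15 with the lowest ratio of HF+SFC to Control, on the Control, HF and HF+SFC arrays, 1 array each. Grey bars join the Control and HF+SFC values and the dotted line marks the 75th percentile filter; Mybph and Tmem140 had the largest signals of their panels, and many other genes lay near the filter on 1 of the 2 arrays.

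Adipocyte markers stood higher as a list. Of 7 above the filter (8 measured), 6 had a ratio above 1 (3371 of 6920 over all genes). At least 1.5-fold higher were 3 (1.14% over all genes), and the median log2 ratio was 0.23 against -0.01 over all genes. Cidec and Retn passed on the HF+SFC array only and so had to be higher, and over the 5 markers that passed on both arrays the median was 0.12. Besides Adipoq and Cidec, Retn, the adipose hormone resistin, had signals of 207, 386 and 418 (2.02-fold higher). These 3 are made by fat cells rather than by muscle fibres. The other 4 are also abundant in muscle, and the probe set used put each of them short of 1.5-fold: Fabp4, a fatty acid binding protein, had 21626, 26497 and 25306, Car3, a carbonic anhydrase, had 47690.5, 51953 and 51978, Plin4, a lipid droplet coat protein, had 4864, 5483 and 5156, and Lpl, which frees fatty acids from plasma lipoproteins, had 31931, 27428 and 30257. Another bright probe set gave a log2 ratio of 0.73 for Car3 and -0.31 for Lpl. Lep, the satiety hormone leptin, was below the filter on both compared arrays, with 45.8, 592 and 387. The summed signal of the 8 markers was 107424 on Control, 117664 on HF and 116850.0 on HF+SFC, most of it from the 4 genes that muscle shares. In bulk RNA, more fat cells in the sample and more RNA of these genes per cell cannot be told apart, and the part of fat cells in the values of Hp, G0s2 and Sncg was not tested. Lipid droplet and lipolysis genes, by contrast, had no direction as a list (7 of 15 higher, 8 lower, median -0.01). Its 3 members at 1.5-fold or more, all higher beside 1.14% over all genes, were G0s2, Cidec and Ces1d. Ces1d, a carboxylesterase that hydrolyses triglycerides in fat and liver, had signals of 1045, 2041 and 1881 (1.80-fold higher, but a log2 ratio of 0.31 on its other bright probe set). Plin5, the coat protein that docks droplets to mitochondria in oxidative muscle, had 1622, 1828 and 2426, and Plin2, the general coat protein of muscle droplets, had 862, 631 and 629 (log2 ratio -0.46). Pnpla2, the lipase ATGL itself, had 5316, 4469 and 4905 (log2 ratio -0.12), and its activator Abhd5 had 1589, 1344 and 1261 (log2 ratio -0.33).

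Genes of the connective tissue were higher as lists. Of 27 collagen and matrix genes above the filter, 25 had a ratio above 1 and 4 were at least 1.5-fold higher, none lower, beside 79 higher and 92 lower of all 6920 genes, and the median log2 ratio was 0.26. Among the fibril collagens of tendon and muscle sheath, Col1a2 had signals of 5695, 9557 and 8839.8 (1.55-fold higher), Col1a1 had 968, 1883 and 1335 (log2 ratio 0.46) and Col3a1 had 4759, 7051 and 6359 (log2 ratio 0.42). The small leucine-rich proteoglycans that bind and space collagen fibrils spanned a wide range. Fmod, fibromodulin, had 5106, 7527 and 9839 (1.93-fold higher), Ogn, osteoglycin, had 1715, 3013 and 2881 (1.68-fold higher), and Lum, lumican, had 826, 1120.2 and 1113 (log2 ratio 0.43). On the probe sets used, Fmod was highest on the HF+SFC array, while Ogn and the type I collagens were highest on the HF array. The order of these 2 arrays depended on the probe set for Fmod and Ogn. Another bright probe set of Fmod read 902, 2964 and 2349, while the rest read highest on HF+SFC. That of Ogn read 870, 1174 and 1182. Lox, the enzyme that cross-links collagen, had 368, 664 and 563 (1.53-fold higher) and passed the filter on the HF+SFC array only. Basement membrane genes had log2 ratios of -0.07 for Nid1, 0.00 for Lamc1, 0.01 for Lamb2, 0.14 for Lama2 and 0.14 for Col4a2. The collagen Col4a1 of the same layer had 3356, 3840.2 and 4152 (log2 ratio 0.31, and 0.58 on its other bright probe set).

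Tendon markers had the largest median of all lists with 5 or more genes above the filter. All 5 of 5 were higher, 2 of them at least 1.5-fold (79 of 6920, or 1.14%, over all genes), with a median of 0.51. These 2 were Tnmd and Fmod, the latter already counted among the matrix genes. Tnmd, tenomodulin, a surface protein of tendon cells, had signals of 849.6, 1458 and 1388 (1.63-fold higher). Comp, an organiser of tendon matrix, had 659.6, 849 and 937 (log2 ratio 0.51), Kera, the proteoglycan keratocan, had 415, 539 and 552 (log2 ratio 0.41), and Thbs4, a thrombospondin of the junction of muscle and tendon, had 3972, 5268 and 5063 (log2 ratio 0.35). The summed signal of the 5 genes was 11002 on Control, 15641 on HF and 17778 on HF+SFC. The order of HF and HF+SFC in this sum rested on the probe set used for Fmod (5106, 7527 and 9839). Of the others, Tnmd and Thbs4 read higher on HF, and Comp and Kera higher on HF+SFC. Fibroblast and matrix markers, among them the type I and III collagens, Dcn and Lum of the list above, were higher in 8 of 8. Only 1 was at 1.5-fold or more (1.14% over all genes), and the median of the list was 0.37. Of these, Pdgfra, the receptor that marks fibroblasts and their precursors and is no matrix protein, had 777, 800.3 and 846 (log2 ratio 0.12). The list's summed signal was 33726 on Control, 43399 on HF and 42138 on HF+SFC. The part of the amount of tendon or sheath in the sample in these values was not tested. Matrix proteases and their inhibitors were higher in 10 of 12, none at 1.5-fold, with a median of 0.16, from Timp4 at -0.12 to Mmp2, which digests basement membrane collagen, at 0.33. Further matrix genes past 1.5-fold on the higher side, chosen after their values were seen and for that direction, were Chad with 515, 656 and 928, Cilp with 1486, 2443 and 2667, Prg4 with 654, 1027 and 1112, Col12a1 with 241, 553 and 458 and Thbs2 with 296, 466 and 455. Col12a1 and Thbs2 passed the filter on the HF+SFC array only. Ccn3, a secreted matricellular protein also chosen after its values were seen, lay on the lower side with 722, 694 and 462 (1.56-fold lower).

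**Figure D3:**
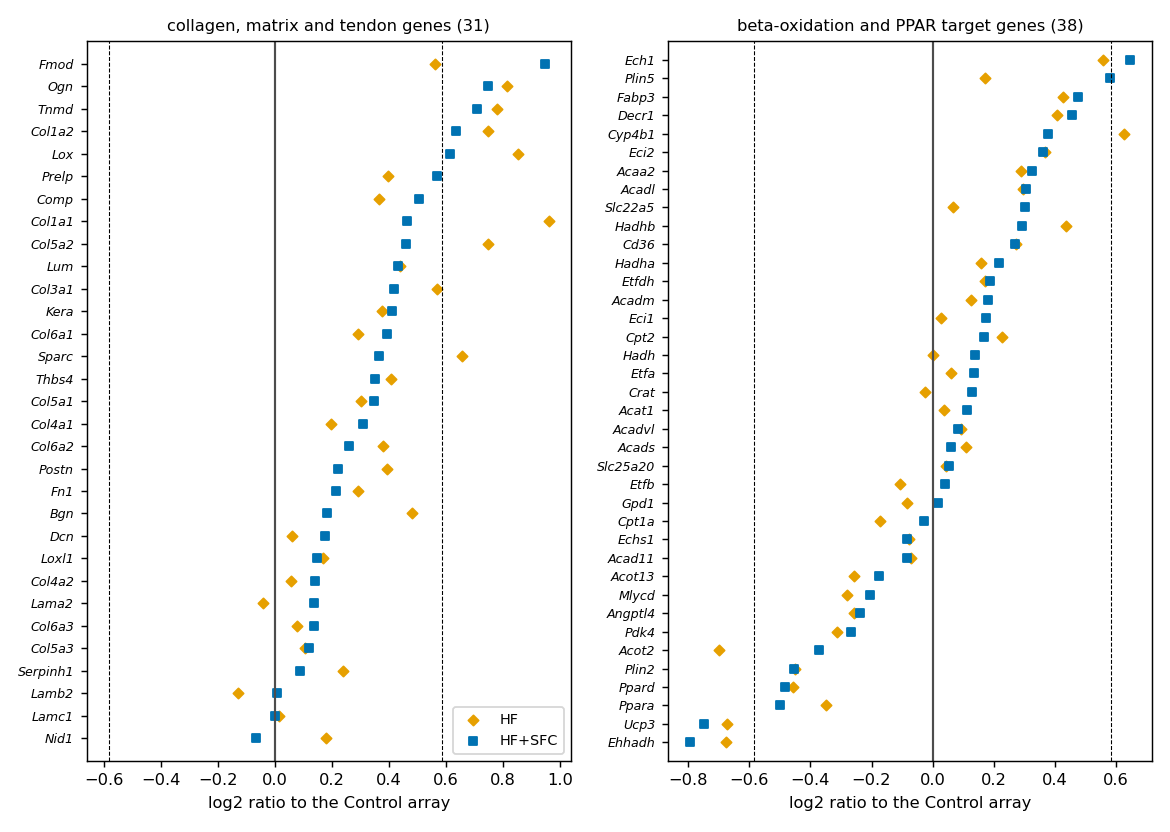
Log2 ratio to the Control array (horizontal axis) of 31 collagen, matrix and tendon genes (left) and 38 beta-oxidation and PPAR target genes (right), for the HF+SFC array (squares) and the HF array (diamonds), 1 array each, sharing the Control array. Dashed lines mark 1.5-fold; the HF+SFC squares run from -0.07 for Nid1 to 0.95 for Fmod on the left and from -0.79 for Ehhadh to 0.65 for Ech1 on the right.

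Beta-oxidation genes were higher as a list, by small amounts. Of 24 above the filter, 20 had a ratio above 1 (3371 of 6920 over all genes), and the median was 0.15. Only 1 was at least 1.5-fold higher, beside 1.14% over all genes. Ech1, an auxiliary enzyme that moves double bonds so that unsaturated fatty acids can be burned, had signals of 10056, 14826 and 15764 (1.57-fold higher). Decr1, a reductase of the same branch, had 4756, 6315 and 6530.3 (log2 ratio 0.46), and Eci2, an isomerase of it, had 3105, 4005 and 3988 (log2 ratio 0.36). The enzymes of the main spiral followed, with log2 ratios of 0.30 for the dehydrogenase Acadl (18469.6, 22667 and 22815), 0.29 for the trifunctional protein subunit Hadhb (17559, 23798 and 21535) and 0.33 for the thiolase Acaa2 (5215, 6370.5 and 6544). Carnitine transfer, which carries fatty acids into mitochondria, lay nearer 0, with 0.17 for Cpt2 (2926, 3423 and 3286), 0.05 for the carrier Slc25a20 (6698, 6905 and 6956) and -0.03 for Cpt1a (542, 481 and 531), whose other bright probe set gave -0.47. The lowest member was the thioesterase Acot13 at -0.18.

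PPAR target genes stood higher as a list, but its members split in opposite directions. Of 27 above the filter, 17 were higher and 10 lower, with a median of 0.13. Together with the beta-oxidation list it held 38 distinct genes above the filter, so some, Ech1 among them, were counted in both. Fabp3, the fatty acid carrier of muscle cytosol, had 28049, 37762 and 39009 (log2 ratio 0.48), and the fatty acid transporter Cd36 had 8639.7, 10439 and 10425 (log2 ratio 0.27). The members at 1.5-fold or more were Ech1 on the higher side and Ehhadh and Ucp3 on the lower, beside 1.14% and 1.33% over all genes. Ucp3, an uncoupling protein of muscle mitochondria, had signals of 5431, 3409 and 3229 (1.68-fold lower), and its other bright probe set gave -0.51. Ehhadh, the bifunctional enzyme of beta-oxidation in peroxisomes, had 465, 291 and 268 (1.73-fold lower) and passed the filter on the Control array only. Pdk4, the kinase that shuts pyruvate out of mitochondria in fasting, had 41206, 33192 and 34274 (log2 ratio -0.27), and the thioesterase Acot2 had 3642, 2241 and 2815 (log2 ratio -0.37). The receptors themselves were lower than in Control but short of 1.5-fold, Ppara with 736, 577 and 520.4 (log2 ratio -0.50) and Ppard with 461, 336 and 330.3 (log2 ratio -0.48). Ppard passed the filter on the Control array only and so had to be lower.

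The lowest ratios belonged to a mixed group with no fat cell or matrix gene among the 15. Tmem100, a membrane protein of endothelium induced by bone morphogenetic protein signals, had signals of 1495, 920.4 and 563 (2.66-fold lower). Tmem140, another transmembrane protein, was the brightest of them, with 3623, 1906 and 1424 (2.54-fold lower). Dusp26, a dual-specificity phosphatase, had 2254, 1119 and 1054 (2.14-fold lower), and the unnamed transcript 9330159F19Rik had 1646, 901 and 733 (2.24-fold lower), with -0.29 on its other bright probe set. In Tmem140, Dusp26 and 9330159F19Rik the HF value was nearer to HF+SFC than to Control, while in Tmem100 it lay midway on the log scale. Gbp6, an interferon-induced GTPase, had 1738, 1215 and 873 (1.99-fold lower), with -0.73 on its other bright probe set. Slc25a25, the mitochondrial carrier that exchanges ATP-magnesium for phosphate, had 1169, 674 and 615 (1.90-fold lower).

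The other 9 of the 15 lowest passed the filter on the Control array only. Tmprss6, the protease that curbs hepcidin in the liver, had 457, 331 and 209.7 (2.18-fold lower). Mtg2, a GTPase of mitochondrial ribosome assembly, had 601, 412 and 267 (2.25-fold lower), and Tbx1, a T-box transcription factor, had 529, 346 and 245 (2.16-fold lower). In these the HF value lay between the other 2. Gripap1, a protein of recycling endosomes, had 672, 529 and 311 (2.16-fold lower). Wdr48, a cofactor of deubiquitinating enzymes, had 697, 286 and 324 (2.15-fold lower), and -0.35 on its other bright probe set. For the serine protease Htra4 the signals were 497, 454 and 234 (2.12-fold lower), and for Ss18l1, a subunit of a chromatin remodelling complex, 652, 747 and 317 (2.06-fold lower). In Htra4 and Ss18l1 the HF+SFC array stood alone below the other 2. Trmt2a, a tRNA methyltransferase, had 394, 304 and 201 (1.96-fold lower), and the transcription factor Tfcp2 had 399, 253 and 208 (1.92-fold lower).

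Pfkfb3, which makes the strongest activator of glycolysis, had signals of 5914, 3529 and 3115 (1.90-fold lower), and its other bright probe set gave -0.59. Ppargc1a, the PGC-1alpha coactivator that drives mitochondrial and oxidative genes, had 2991, 2515 and 1803 (1.66-fold lower). Its 4 other bright probe sets gave log2 ratios of -0.74, -0.75, -0.89 and -0.90, all on the lower side. Of the glucocorticoid list, 6 of 15 genes were higher and 9 lower, 2 of them at least 1.5-fold lower (92 of 6920 over all genes), with a median of -0.11. Cebpd, a transcription factor, had 2783, 1874 and 1699.8 (1.64-fold lower), and Zbtb16, the zinc finger factor PLZF, had 4861, 3432 and 3073 (1.58-fold lower), though its 2 other bright probe sets gave only -0.24 and -0.21. Fkbp5, a chaperone and standard glucocorticoid target, had 1278, 1618 and 1768 (log2 ratio 0.47, and -0.03 on its other bright probe set), and the metallothionein Mt2 had 1326, 2157 and 1853 (log2 ratio 0.48). Among immediate early genes (6 of 19 higher, 13 lower, median -0.05, no direction) Zfp36, which speeds the decay of inflammatory mRNAs, had 1355, 974 and 834 (1.62-fold lower), while Dusp1, the phosphatase that ends MAP kinase signals, had 2977, 4787 and 5389 (1.81-fold higher). Each was the only member past 1.5-fold on its side, beside 1.33% lower and 1.14% higher over all genes. Ppp1r15a, which restarts translation after stress, had 1114, 743 and 637 (1.75-fold lower), and Gadd45a, a stress and denervation gene, had 1812, 941 and 999 (1.81-fold lower). Odc1, the first enzyme of polyamine synthesis and one of the brightest genes past the threshold, had 15829, 13092 and 9623 (1.64-fold lower), with -0.48 and -1.02 on its 2 other bright probe sets. Among bright lower genes outside the lists, chosen after their values were seen, Nmrk2, a muscle-rich kinase that makes NAD from its vitamin precursor, had 6678, 3919 and 3993 (1.67-fold lower), and Pank1, the first enzyme of coenzyme A synthesis, had 2757, 2009 and 1742 (1.58-fold lower).

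Promoter sequences are shown for some of the named genes so that the letters before their start sites can be read beside the values, and the genes were chosen after their values were seen. They come from RefSeq (GRCm38.p6) and lie within the 250 bases before a start site, 5′ to 3′ on the gene's strand. Capitals mark TGACGTCA, the cyclic AMP response element, in Dusp1, Slc25a25, Ppp1r15a and Flcn, and CAGCTG, an E-box of the kind that muscle regulators bind, in Mybph, G0s2 and Ucp3. Flcn, folliculin, a regulator of nutrient signalling, had signals of 4019, 3092 and 2537 (1.58-fold lower).
Mybph, chr1:134193329-134193414 (+ strand): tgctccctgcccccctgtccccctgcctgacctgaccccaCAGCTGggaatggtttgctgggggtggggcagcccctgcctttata
G0s2, chr1:193273367-193273438 (- strand): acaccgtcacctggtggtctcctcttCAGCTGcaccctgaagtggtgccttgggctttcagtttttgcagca
Dusp1, chr17:26508568-26508655 (- strand): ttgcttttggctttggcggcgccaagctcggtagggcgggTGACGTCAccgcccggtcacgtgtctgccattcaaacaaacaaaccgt
Slc25a25, chr2:32424169-32424256 (- strand): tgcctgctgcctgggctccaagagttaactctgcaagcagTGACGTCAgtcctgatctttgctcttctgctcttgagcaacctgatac
Ppp1r15a, chr7:45526269-45526320 (- strand): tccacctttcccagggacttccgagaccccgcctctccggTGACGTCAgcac
Flcn, chr11:59810041-59810128 (- strand): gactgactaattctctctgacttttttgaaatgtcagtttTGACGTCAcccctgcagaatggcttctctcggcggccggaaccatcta
Ucp3, chr7:100472911-100472990 (+ strand): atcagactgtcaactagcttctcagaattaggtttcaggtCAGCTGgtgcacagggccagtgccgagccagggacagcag
Both motifs read the same on both strands, and neither contains the other. TGACGTCA stood in 3.33% of the 5671 genes above the filter that have a promoter in the table and in 1.77% of all 27025 genes of the table. It stood in 1 of the 57 higher genes with a promoter (1.75%) and in 4 of the 80 lower ones (5%), the 4 being Flcn, Ppp1r15a, Slc25a25 and Txnl4b. CAGCTG stood in 13.9% of the genes above the filter and in 14.7% of all, in 11 of 57 higher genes (19.3%) and in 12 of 80 lower ones (15.0%). The E-box CACGTG stood in 4 of 57 higher (7.02%) and 9 of 80 lower genes (11.2%), against 11.0% of the genes above the filter and 6.86% of all. AGGTCA, the core site of nuclear receptors, searched on both strands, stood in 5 of 57 higher (8.77%) and 17 of 80 lower genes (21.2%), against 12.9% of the genes above the filter and 15.8% of all. A match says only that these letters stand in the window.

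Growth and breakdown genes of muscle were mostly on the lower side, by small margins for some lists. Of the growth hormone and cytokine feedback list, 11 of 15 were lower and 4 higher, 2 of them at least 1.5-fold lower (92 of 6920, or 1.33%, over all genes), with a median of -0.16. Cish, a feedback inhibitor switched on by STAT5, had signals of 1107, 2008 and 638 (1.73-fold lower), and Socs2, another such inhibitor, had 968, 1429 and 684 (log2 ratio -0.50). For both, the HF array was the highest of the 3 and the HF+SFC array the lowest. Igf1, the growth factor that STAT5 induces, had 1797, 1720.4 and 1183 (1.52-fold lower), and -0.45 on its other bright probe set. Bcl6, which STAT5 represses, had 4295, 4251 and 3282 (log2 ratio -0.39), but -0.04 on its other bright probe set. Igfbp5 and Igfbp3, binding proteins of IGF, had log2 ratios of 0.28 (9516, 10302 and 11539) and 0.29 (429, 428 and 523). Of 13 myogenic regulators, 10 were lower and 3 higher, with a median of -0.13. With the mean of bright probe sets their median was -0.086, within 0.1 of that of all genes and so without a direction. Igf2 had 675, 443 and 496 (log2 ratio -0.44) and the fibre factor Myf6 had 6633, 5812 and 5316 (log2 ratio -0.32), while Myod1 had 536, 577 and 531 (log2 ratio -0.01).

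Of 21 genes of atrophy and protein breakdown, 18 were lower and 3 higher, none at 1.5-fold, with a median of -0.13. With probe sets of more than 1 transcript left out, their median was -0.099, within 0.1 of that of all genes and so without a direction. The pair of ubiquitin ligases that mark wasting muscle were Fbxo32, atrogin-1, with 13711, 8834 and 9315 (log2 ratio -0.56), and Trim63, MuRF1, with 22109, 19731 and 17039 (log2 ratio -0.38). Klf15, a glucocorticoid-induced factor of amino acid breakdown, had 1566, 1114 and 1056 (log2 ratio -0.57), and the autophagy gene Gabarapl1 had 1614, 1125 and 1159 (log2 ratio -0.48). Foxo1, the transcription factor upstream of both ligases, was the highest member with 1427, 1486 and 1719 (log2 ratio 0.27), whereas Foxo3 had 1219, 875 and 1094 (log2 ratio -0.16). Branched-chain amino acid breakdown was lower in 15 of 20 and higher in 5, none at 1.5-fold, with a median of -0.14. Its lowest member was Ivd, the dehydrogenase of the leucine pathway, with 2261, 1388 and 1658 (log2 ratio -0.45), and Bcat2, the first step in muscle, had 404, 337 and 319 (log2 ratio -0.34). Bcat2 passed the filter on the Control array only. Of 11 secreted muscle factors, 6 were lower and 5 higher, with a median of -0.24. It was -0.07 over the 8 that passed on both arrays, and so without a direction there. Fndc5, the precursor of irisin, had 1821, 1406 and 1265 (log2 ratio -0.53) and Vegfa, the main vessel growth factor, had 1959.9, 1718 and 1402 (log2 ratio -0.48), while Fst, the myostatin inhibitor follistatin, had 241, 427 and 397 (1.64-fold higher). Fst passed the filter on the HF+SFC array only.

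Fibre-type genes moved little. Of 14 slow fibre genes, 10 were lower and 4 higher, none at 1.5-fold, with a median of -0.11. The lowest were Myoz2, a Z-disc protein of slow fibres, with 10173, 6409 and 7006 (log2 ratio -0.54), and the stretch-sensitive Ankrd2 with 4971, 3284 and 3465 (log2 ratio -0.52). The slow myosin heavy chain Myh7 had 8784, 6099 and 8490.3 (log2 ratio -0.05), so that HF+SFC was close to Control and HF below both, and the slow troponin Tnni1 was the highest member with 4078, 3778 and 5109 (log2 ratio 0.33). Of 22 fast fibre genes, 20 were higher and 2 lower, with a median of 0.10 and a range from -0.12 to 0.18. This small shift lay close to the 0.07 of all genes with a signal above 20000, a set that holds the skeletal muscle markers and bright fast fibre genes such as Myh4. After quantile normalization the median of the fast fibre genes and of the skeletal muscle markers was 0.00. That step gives equal values to equal ranks, so it cannot show whether the brightest genes shifted together. No direction is given for these 2 lists. The fast myosin heavy chain Myh4 had 49066, 44594 and 51107 and creatine kinase Ckm had 45639.7, 37327 and 50185. Among Z-disc and stretch genes (13 of 23 higher, 10 lower, median 0.06, no direction), Mybph and Ankrd1 stood past 1.5-fold, beside 1.14% higher over all genes. Ankrd1, a stretch-induced ankyrin repeat protein, had 408, 683 and 711 (1.74-fold higher), and its second bright probe set gave 0.88.

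**Figure D4:**
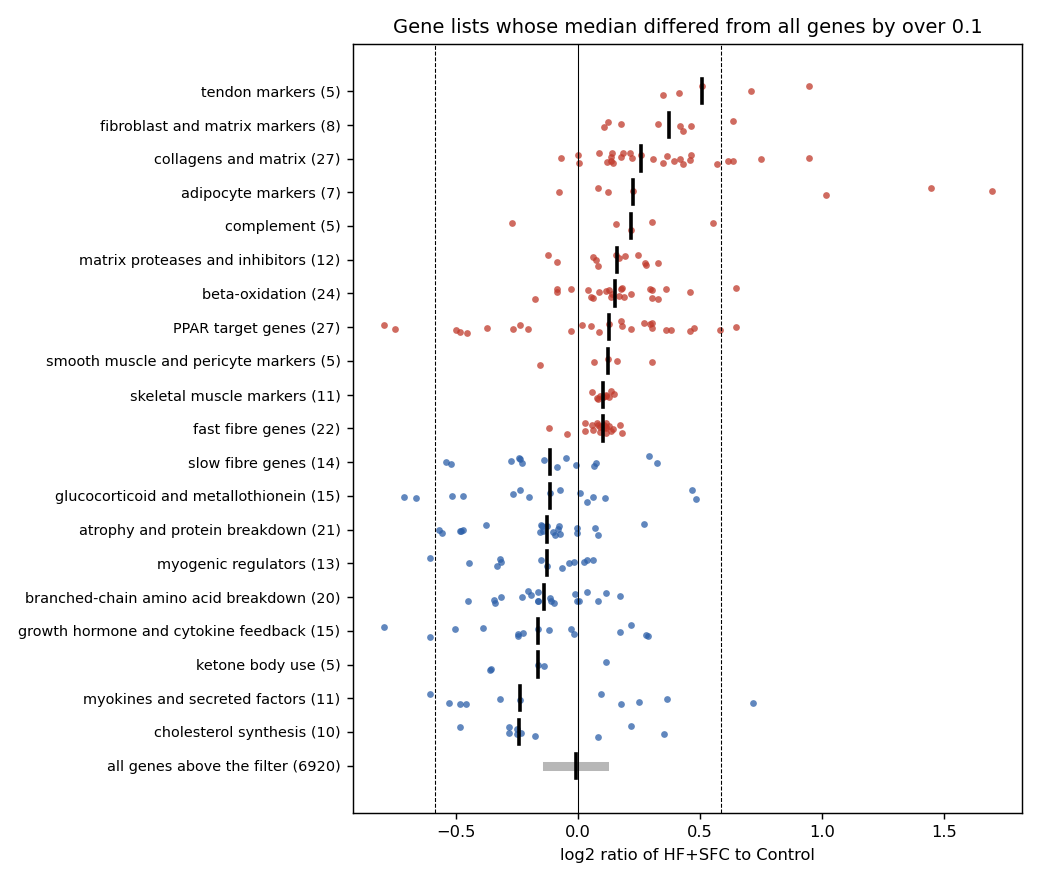
Log2 ratio of HF+SFC to Control (horizontal axis) of the genes above the filter in each list of 5 or more such genes whose median differed from that of all genes by over 0.1 on the deposited scale, with the number of genes in brackets, 1 point per gene and a black bar at the median. The bottom row gives the median and the middle 50% of all 6920 genes, dashed lines mark 1.5-fold, and tendon markers (0.51) and cholesterol synthesis (-0.24) had the highest and lowest medians drawn.

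The mitochondrial respiratory chain had no direction by the same measure. The median log2 ratio was 0.04 for 33 genes of complex I (22 higher), 0.04 for 14 of complexes II and III (11 higher), 0.04 for 12 of complex IV (9 higher) and 0.09 for 17 of ATP synthase (14 higher). After quantile normalization the same medians were 0.002, -0.005, -0.02 and 0.03, so the signs for complexes II and III and for complex IV turned with the scaling. No gene of these lists reached 1.5-fold, beside 1.14% higher and 1.33% lower over all genes. Of the 1730 brightest genes, 6 were higher and 7 lower. Ndufb1, an accessory subunit of complex I that was not in the list and was picked after its value was seen, had 594, 416 and 371 (1.60-fold lower) and passed on the Control array only. Cox8c, the complex IV isoform named above and also outside these lists, was 2.18-fold higher and passed on the HF+SFC array only. The widest values were Cox7a2l, a factor of supercomplex assembly, with 6832, 6161 and 5879.5 (log2 ratio -0.22, but 0.30 on 1 of its other bright probe sets), and Atp5c1, the gamma subunit of ATP synthase, with 37756, 37632 and 43199.8 (log2 ratio 0.19). Of 21 citric acid cycle genes 13 were higher and 8 lower (median 0.03), with Idh3b, a subunit of isocitrate dehydrogenase, highest at 24013, 29215 and 29205 (log2 ratio 0.28). Of 74 mitochondrial ribosome genes 30 were higher and 44 lower (median -0.03). Regulators of mitochondrial biogenesis were lower in 14 of 18 and higher in 4, with a median of -0.08, which was not far enough from that of all genes to give a direction. Next to Ppargc1a, its relative Ppargc1b had 601, 665 and 797 (log2 ratio 0.41), and Tfam, which packs and copies mitochondrial DNA, had 2516, 2683 and 2933 (log2 ratio 0.22).

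Genes of iron handling, the nutrient added to the HF+SFC diet, stayed close to Control. Of 17 above the filter, 10 were higher and 7 lower, with a median of 0.03 and a range from -0.22 to 0.30. None was at 1.5-fold, beside 1.14% higher and 1.33% lower over all genes. Tfrc, the transferrin receptor, whose mRNA is stabilised when a cell lacks iron, had signals of 10076, 10052 and 10707 (log2 ratio 0.09). Fth1, the ferritin heavy chain that stores iron, had 46118, 45958 and 47211 (log2 ratio 0.03), and the iron exporter Slc40a1, ferroportin, had 3885, 4223 and 3733 (log2 ratio -0.06). Hjv, hemojuvelin, a muscle-rich coreceptor of the hepcidin pathway and the protein that Tmprss6 cleaves, had 22814, 24362 and 26449.5 (log2 ratio 0.21). The highest members were the importers Slc25a37, mitoferrin, with 586, 720.1 and 722 (log2 ratio 0.30), and Slc11a2, the divalent metal transporter, with 413, 389.8 and 497 (log2 ratio 0.27).

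Heme genes had no direction as a list, with 9 of 18 higher, 9 lower and a median of 0.00. The 2 members at 1.5-fold or more, both higher beside 1.14% over all genes, were Hp and Cpox. Cpox, the sixth enzyme of heme synthesis, had signals of 533, 852 and 815 (1.53-fold higher). Alad, the second enzyme, had 882, 1535 and 1288 (log2 ratio 0.55), just short of the threshold. For both enzymes the HF array read highest. The first and rate-limiting enzyme in muscle, Alas1, had 3918, 3784 and 3807 (log2 ratio -0.04), and the last, Fech, which inserts the iron, had 7101, 6810.4 and 7347 (log2 ratio 0.05). The lowest member was Abcb10, a transporter of the inner mitochondrial membrane, with 955, 631 and 746 (log2 ratio -0.36). Of 18 iron–sulfur cluster genes 6 were higher and 12 lower, none at 1.5-fold, with a median of -0.03. The scaffold Iscu had 9057, 8299.9 and 9718 (log2 ratio 0.10), the sulfur donor Nfs1 had 4173, 3979 and 3818 (log2 ratio -0.13), and Ciao3, of the cytosolic branch, was lowest with 1236, 1025 and 979 (log2 ratio -0.34). Mb, the heme protein myoglobin, had 41623, 38734 and 44689 (log2 ratio 0.10), within the shift of the other very bright genes.

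Glucose handling was mostly flat. Of 17 glycolysis genes 9 were higher and 8 lower (median 0.00), and only Pfkfb3 passed 1.5-fold, on the lower side (1.33% over all genes). Insulin signalling and GLUT4 genes were higher in 8 of 18 and lower in 10 (median -0.09, no direction, but -0.12 with no filter). Slc2a4, the insulin-responsive glucose transporter GLUT4, had 12772, 11298 and 10563 (log2 ratio -0.27), the receptor Insr had 2524, 2127 and 2254 (log2 ratio -0.16), and Pik3r1, the regulatory subunit of PI 3-kinase, was highest with 1231, 1549.8 and 1675 (log2 ratio 0.44). Cholesterol synthesis was lower in 7 of 10 and higher in 3, none at 1.5-fold, with a median of -0.24, but over all 20 genes measured, the dim ones included, the median was 0.07. Its ends were Hsd17b7 with 584, 495 and 418 (log2 ratio -0.48) and Nsdhl with 350.4, 359 and 448 (log2 ratio 0.35), both enzymes of late steps. Nsdhl passed the filter on the HF+SFC array only. Ketone body use was lower in 4 of 5 (median -0.17, and -0.29 with the mean of bright probe sets), with Bdh1, which oxidises beta-hydroxybutyrate, at 3693, 3305 and 2878 (log2 ratio -0.36, and -0.59 on its other bright probe set) and the transporter Slc16a1 at 5659.6, 5058 and 4423 (log2 ratio -0.36).

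Other probe sets of the same gene read the same RNA through different probes. In most, but not all, genes at 1.5-fold or more with other bright probe sets, these lay on the same side of 0 as the brightest one. Across the 6920 genes, 2540 had another probe set above the filter, 3814 in all, and the log2 ratios of such a probe set and the brightest one differed with an SD of 0.23. Of the 79 higher genes 11 had one, and in 10 of these every other bright probe set was also above 0, with at least 1 at 1.5-fold in 6. Of the 92 lower genes 22 had one, and in 19 every other was below 0, with at least 1 at 1.5-fold in 7. The remaining 68 higher and 70 lower genes rested on 1 bright probe set. The genes below were picked for this check after their values were seen. Fmod was read by 5 other probe sets, with log2 ratios from 0.70 to 1.38, and Cdh4 by 1, with 1.02. Col1a2 (0.88), Dbp (0.72), Flcn (-0.82), Pim1 (-0.91) and Pank1 (-0.84) were matched in size as well. Qars, Acaa1a (0.22 against -0.70), Clic4 (0.19 and -0.16 against -0.80) and Morc3 (0.04 against -0.61) had another probe set on the other side of 0. Mtch2, a carrier-like protein of the outer mitochondrial membrane with signals of 3976, 9984 and 7936 (1.996-fold higher), gave 0.11 and 0.00 on its others, and Ercc1, a DNA repair protein with 877, 1607 and 1586 (1.81-fold higher), gave 0.03, so in these the size of the difference was not shared between probe sets. Among genes named above that were short of 1.5-fold, another bright probe set gave a smaller or opposite log2 ratio for Col1a1 (0.21), Vegfa (-0.04), Gabarapl1 (-0.14), Slc2a4 (-0.06), Acot2 (-0.12), Abhd5 (-0.06), Foxo3 (0.11) and Ckm (-0.06), and a larger one for Ppara (-0.77) and Pik3r1 (0.89).

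**Figure D5:**
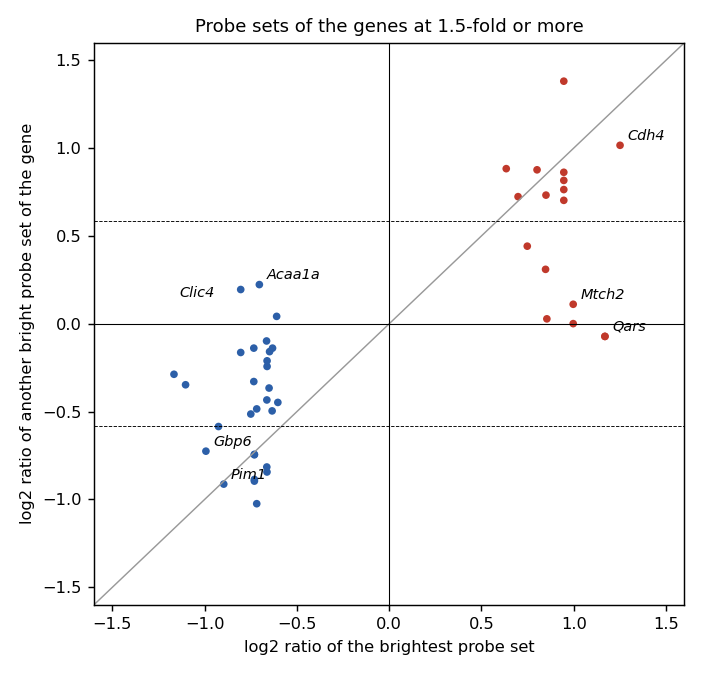
Log2 ratio of HF+SFC to Control of another bright probe set (vertical axis) against that of the brightest probe set (horizontal axis), 1 point for each of the 46 other probe sets of genes at 1.5-fold or more. Red points are higher and blue points lower genes, the grey line marks equal ratios and the dashed lines 1.5-fold; Qars, Acaa1a, Clic4 and Morc3 have a point across 0 from the brightest probe set.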

How the data were processed

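RNA of gastrocnemius was labelled with a 3' IVT kit and hybridised to Affymetrix Mouse Genome 430 2.0 arrays, 1 per group. The authors deposited linear MAS5 intensities, a robust average of each probe set's perfect-match probes less their mismatches, scaled to a common trimmed mean. The submitters' processing notes name MAS5 with no version, and neither detection calls nor replicate arrays were used here. The number of arrays limits the precision. MAS5 subtracts mismatch signals, so ratios of dim probe sets scatter widely, and a filter on signal was therefore kept throughout. Liver arrays, further tables of the study and certain genes were not analysed here.

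Of 45101 probe sets, 64 were controls and were left out, 34945 carried 1 gene symbol in the array annotation, 932 more than 1 and 9160 no symbol. Old symbols were replaced with current ones by looking up the gene ID in RefSeq (GRCm38.p6), which held the ID of 34741 probe sets, and no coordinates were set against the files, for which no build is named. Log2 ratios of HF+SFC to Control were taken from the deposited intensities as they stand, with no offset and no further scaling (Python 3.11.15, numpy 2.4.6, pandas 2.3.3, matplotlib 3.10.9). A gene was counted at 1.5-fold, a threshold the study also uses. No test was run. A gene list was called higher or lower where its median differed from that of all genes by over 0.1 on the log2 scale, and was otherwise given without a direction. Where a list had no member at 1.5-fold, the shares over all genes beside it were 1.14% higher and 1.33% lower. Of 57 lists, 13 stood higher on the deposited scale, 9 lower and 33 had no direction, and 2 had no gene above the filter. The 13 include the fast fibre, skeletal muscle and smooth muscle lists, which lost their direction under another scaling, and lists of 1 (globins) and 2 genes (macrophages). Of the 9, the myogenic and atrophy lists lost theirs with another choice of probe set. The secreted factor list lost its direction with the filter on both arrays, and cholesterol synthesis with no filter. The lists were written from textbook knowledge, and they and the members were chosen with earlier results of these data known. Genes named are the 15 highest and 15 lowest ratios and, from the lists, members at 1.5-fold or more, extremes and those needed for their roles. Other genes are said to have been chosen after their values were seen. The counting was tested on simulated data with known changes. Promoter stretches and their coordinates come from RefSeq (GRCm38.p6). The alternatives, 9 in all, were quantile normalization, median centring, an offset of 50, 3 other choices of probe set, a filter on both arrays, no filter, and a 2-fold threshold.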

Additional observations from a re-analysis of the deposited data

How the results depend on the processing

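The counts of 79 higher and 92 lower genes stayed within 1.5 times of these values under quantile normalization (82 and 83), median centring (93 and 78), an offset of 50 (61 and 70), the brightest probe set over the 2 compared arrays (77 and 92), the mean of bright probe sets (78 and 82) and with probe sets of more than 1 transcript left out (71 and 72 of 5537 genes). They moved to 45 and 55 with the filter on both arrays, which removes the genes that had to differ to pass on 1 array, and to 17 and 11 at 2-fold. With no filter they were 3006 and 2265 of 18193 genes, and the share of higher genes among those past 1.5-fold was 57.0% instead of 46.2%. The cause of that shift was not tested.

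The median log2 ratio of all genes ran from -0.01 to 0.03 over the alternatives. Of the genes past 1.5-fold, Qars (-0.0723) and Morc3 (0.0419) reversed with the brightest probe set over the 2 compared arrays, where another probe set was taken. Of the list medians, cholesterol synthesis reversed with no filter (0.0691 over 20 genes), and the fast fibre and skeletal muscle lists went to 0.00 under quantile normalization. By the 0.1 rule other lists lost their direction too. Myogenic regulators were -0.086 with the mean of bright probe sets, and atrophy genes -0.099 with probe sets of more than 1 transcript left out. Smooth muscle and pericyte markers were 0.089 under quantile normalization and 0.094 with no filter. Some medians with no direction gained one. With probe sets of more than 1 transcript left out, the unfolded protein response went from 0.01 to -0.15 and denervation genes from -0.02 to -0.14. With no filter, denervation genes went to -0.18, fatty acid synthesis from -0.06 to 0.16 and lipid droplets from -0.01 to 0.13. In that setting the median of all genes was 0.017, insulin signalling went from -0.09 to -0.12 and immediate early genes from -0.051 to -0.085. Polyamine genes went from -0.099 to -0.109 with the mean of bright probe sets. Fatty acid synthesis was 0.09 with probe sets of more than 1 transcript left out, where ketone body use went from -0.17 to -0.28. Ketone body use was -0.29 with the mean of bright probe sets. Secreted muscle factors went from -0.24 to -0.07 with the filter on both arrays and so lost their direction. The adipocyte median of 0.23 was 0.12 over the 5 markers above the filter on both arrays, 0.38 with the mean of bright probe sets, 0.57 with probe sets of more than 1 transcript left out and 0.62 over all 8 measured. No paired analysis was possible because each group had 1 array. Leaving out a replicate was not possible for the same reason.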

Other observations

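Clock genes, read at 1 time of day, had no direction as a list (8 of 16 higher, 8 lower, median 0.01), with signals again in the order Control, HF and HF+SFC. Dbp, an output gene of the clock, had 2163, 2500.1 and 3510.3 (1.62-fold higher), and its other bright probe set gave 0.72. Its relative Tef had 5144, 5849 and 6196 (log2 ratio 0.27) and the deubiquitinase Usp2 had 8065, 7957 and 10486 (log2 ratio 0.38). Nfil3, which competes with Dbp for the same sites, was lowest with 1599.6, 1342 and 1146 (log2 ratio -0.48), and the core activators Arntl and Clock had log2 ratios of -0.20 (892, 819.8 and 776) and -0.24 (1098, 1043 and 932). The hour at which each group was sampled was not used here.

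Calcium handling genes had no direction (15 of 20 higher, 5 lower, median 0.07), with Sln, the inhibitor of the calcium pump, at 732, 307 and 606 and the store sensor Stim1 at 2657, 2479.9 and 3219 (log2 ratio 0.28, but -0.25 on its other bright probe set). The antioxidant list had 11 of 26 higher and 15 lower (median -0.07), heat shock proteins 9 of 22 higher and 13 lower (median -0.05) and the proteasome 23 of 34 higher and 11 lower (median 0.05), none with a member at 1.5-fold. Cytosolic ribosome genes were higher in 28 of 35 (median 0.03). In the unfolded protein response 10 of 19 were higher and 9 lower (median 0.01). Only Ppp1r15a was past 1.5-fold, on the lower side (1.33% over all genes), and Chac1, which degrades glutathione, had 9002, 7343 and 6133 (log2 ratio -0.55). Interferon and antigen presentation genes were higher in 13 of 18 and lower in 5 (median 0.04), from Ifit3 at -0.19 to Rsad2 at 0.37. Ifit3 passed the filter on the Control array only.

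Of 12 macrophage and leukocyte markers, Lyz2 with 813, 1039 and 999 and Csf1r with 843, 1045 and 1039 passed, and the summed signal of the 12 was 3636, 4814 and 4444. Endothelial markers were higher in 4 of 7 and lower in 3 (median 0.07), beside the endothelial Tmem100 that was among the lowest genes. Smooth muscle and pericyte markers were higher in 4 of 5 (median 0.12, and 0.089 after quantile normalization), with Acta2 at -0.16 and Tagln at 0.30. Complement genes were higher in 4 of 5 (median 0.22), with C1ra at 277, 281 and 407 (log2 ratio 0.55). C1ra passed the filter on the HF+SFC array only.

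Further lists had no direction. Triglyceride and phospholipid synthesis was higher in 9 of 17 and lower in 8 (median 0.02), and 1 member was past 1.5-fold, on the lower side (1.33% over all genes). This was Gpat3, an acyltransferase of the first step, with 528, 273 and 339.7 (1.56-fold lower), which passed the filter on the Control array only. Dgat2, of the last step, was highest with 1253, 1834 and 1539 (log2 ratio 0.30). Fatty acid uptake and activation was higher in 7 of 16 and lower in 9 (median -0.02), from Acss1 at -0.31 to Fabp3 at 0.48. Fatty acid synthesis and desaturation was higher in 4 of 11 and lower in 7 (median -0.06), from Acaca, the cytosolic acetyl-CoA carboxylase, at -0.25 to the malic enzyme Me1 at 0.27. Glycogen genes ran from Gys1, glycogen synthase, at -0.16 to Ppp1r3c at 0.26 (median 0.02 over 13). Genes of the pyruvate dehydrogenase complex ran from Pdk4 at -0.27 to the phosphatase Pdp1 at 0.41 (median -0.04 over 12). Genes of 2-oxoglutarate dioxygenases, enzymes that need iron, and of oxygen sensing ran from Vegfa at -0.48 to the histone demethylase Kdm4c at 0.31, with 9 of 20 higher and 11 lower (median 0.00). Denervation genes were higher in 4 of 9 and lower in 5 (median -0.02), from Gadd45a at -0.86 to the acetylcholine receptor subunit Chrnb1 at 0.20, and polyamine genes were higher in 3 of 7 and lower in 4 (median -0.10), from Odc1 at -0.72 to the antizyme Oaz2 at 0.13.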
